A study of Mus musculus with 6 samples.

Results

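Natriuretic peptides and other genes of the fetal stress programme were examined in the hearts of 9-month-old mice with 1 targeted allele of Grk2 and of wild-type mice. The genes asked for were Nppa, Nppb, Myh7, Acta1, Ankrd1, Xirp1, Xirp2, Uchl1, Rcan1 and Ccn2 (also written Ctgf), and the members were all probe sets annotated to exactly 1 of these symbols. That gave 11 probe sets for 9 of the 10 genes, out of 45037 probe sets and 18193 named genes; Xirp2 was not analysed here. The genes were selected on their GRK2+/- minus wild-type values and their spread between hearts, so those values are given as a description and carry no test.

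GRK2+/- mice, of strain B6.129-Adrbk1tm1Mca/J backcrossed for more than 20 generations onto C57BL/6J, were compared with wild-type (WT) C57BL/6J littermates, with 3 hearts in each group, 9 months of age and 1 Affymetrix array per heart. The allele is carried in every cell and not in heart muscle alone. The hearts were stopped in diastole with potassium chloride and the top portion was taken for RNA, so the tissue is a mixture of cell types. Values are log2 probe set levels, where a step of 1 is a doubling of brightness. Levels of different probe sets are not read as relative amounts of RNA. They are set side by side only to place a gene on the brightness scale and in summed levels of markers, where bright probe sets weigh most.

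Adult heart muscle under load or injury returns to parts of its fetal pattern of expression. It makes more atrial natriuretic peptide (Nppa) and brain natriuretic peptide (Nppb), hormones that lower blood pressure through receptors that produce cyclic GMP, and shifts from adult to fetal or skeletal isoforms of contractile proteins. GRK2, the product of Grk2 (Adrbk1), is a kinase that switches off beta-adrenergic receptors, through which catecholamines drive the heart.

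The promoters below are shown because Acta1, Nppa, Myh7 and Ankrd1 were low in the same GRK2+/- hearts. They are the 250 bases before the RefSeq start on GRCm38.p6, read 5′ to 3′ on the strand of the gene, and capitals mark matches to 4 motifs searched on both strands: the CArG box bound by serum response factor, the MCAT element CATTCC bound by TEAD factors, the GATA motif AGATAA or AGATAG, and the motif GGAAAA bound by NFAT factors.
Acta1, chr8:123894776-123895025, minus strand: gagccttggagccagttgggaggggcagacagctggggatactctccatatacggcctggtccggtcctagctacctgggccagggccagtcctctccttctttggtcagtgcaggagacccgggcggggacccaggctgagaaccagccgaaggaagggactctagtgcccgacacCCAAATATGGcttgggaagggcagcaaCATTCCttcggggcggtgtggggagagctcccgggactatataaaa
Nppa, chr4:148000472-148000721, plus strand: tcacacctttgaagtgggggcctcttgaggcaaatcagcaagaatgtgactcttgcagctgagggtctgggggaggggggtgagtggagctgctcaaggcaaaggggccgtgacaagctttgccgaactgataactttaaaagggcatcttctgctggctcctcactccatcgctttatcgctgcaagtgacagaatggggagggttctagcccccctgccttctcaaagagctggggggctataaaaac
Myh7, chr14:54994627-54994876, minus strand: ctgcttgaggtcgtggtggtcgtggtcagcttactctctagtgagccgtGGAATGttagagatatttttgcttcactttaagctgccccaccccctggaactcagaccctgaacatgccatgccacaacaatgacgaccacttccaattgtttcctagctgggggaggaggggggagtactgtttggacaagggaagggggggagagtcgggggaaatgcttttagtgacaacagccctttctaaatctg
Ankrd1, chr19:36119845-36120094, minus strand: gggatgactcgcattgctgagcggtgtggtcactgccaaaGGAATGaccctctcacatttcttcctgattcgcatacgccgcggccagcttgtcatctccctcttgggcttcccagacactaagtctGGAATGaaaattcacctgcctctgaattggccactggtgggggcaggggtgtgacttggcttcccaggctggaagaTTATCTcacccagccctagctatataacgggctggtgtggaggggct
For Nppb only the stretch that holds its matches is shown, since another annotated start lies within its window. In the RefSeq gene table Nppb begins at base 147985786, so the stretch lies past that start, inside the gene.
Nppb, chr4:147985795-147985821, plus strand: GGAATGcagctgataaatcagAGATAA

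The Acta1 promoter held a CArG box from base -73 to -64 and an MCAT element from -46 to -41, counted back from the start. The Ankrd1 promoter held 2 MCAT elements and a GATA motif, and the Nppb stretch 1 of each. The farther of the 2 annotated Myh7 starts had 1 MCAT element before it, and the Nppa window had no match to these letters. The GATA search covered only forms that begin with A. TGATAA, which the Nppa window and the Nppb stretch both hold, was not marked or counted. RefSeq promoters matched 8 of the 10 genes, Xirp2 among them. Of these, 4 genes had an MCAT element against 12.6% of all 32851 promoter windows of this length, 2 had a GATA motif (16.5% of all), 1 had a CArG box (1.47%), and 1, Rcan1 at its inner start, had the NFAT motif (20.4%). These shares are per window, whereas a gene counted if any of its windows matched, and Myh7 and Rcan1 had 2 windows each. No matches to different motifs overlapped. A match describes the sequence and was not tested as a binding site. Nppb and Nppa are neighbours, 13516 bases apart on chromosome 4 of GRCm38.p6 in the RefSeq gene table, and Myh6 and Myh7 lie 2666 bases apart on chromosome 14.

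Most of the stress genes stood lower in GRK2+/- than in wild-type hearts. Acta1, the skeletal alpha-actin that the fetal and the stressed heart express, and Nppa stood farthest from wild type, with log2 differences of -1.33 ± 0.35 and -1.20 ± 0.27 (limma SE, n = 3 per group), levels 0.397 and 0.436 times those of wild type. Differences of Myh7, Ankrd1, Ccn2, Nppb and Uchl1 ran from -0.78 to -0.31, and Xirp1 differed by 0.15 ± 0.08. The probe sets of Rcan1 were both below 0 but disagreed in size (-0.03 and -0.29). For Acta1, Nppa, Myh7 and Ankrd1 the lowest levels were in GRK2+/- hearts 1 and 3. GRK2+/- heart 2 lay within or above the wild-type range in 6 of the 11 probe sets and below all wild-type hearts in 5, among them Nppa (-0.50 from the wild-type mean), Acta1 (-0.33) and Ccn2 (-0.22).

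**Figure D1:**
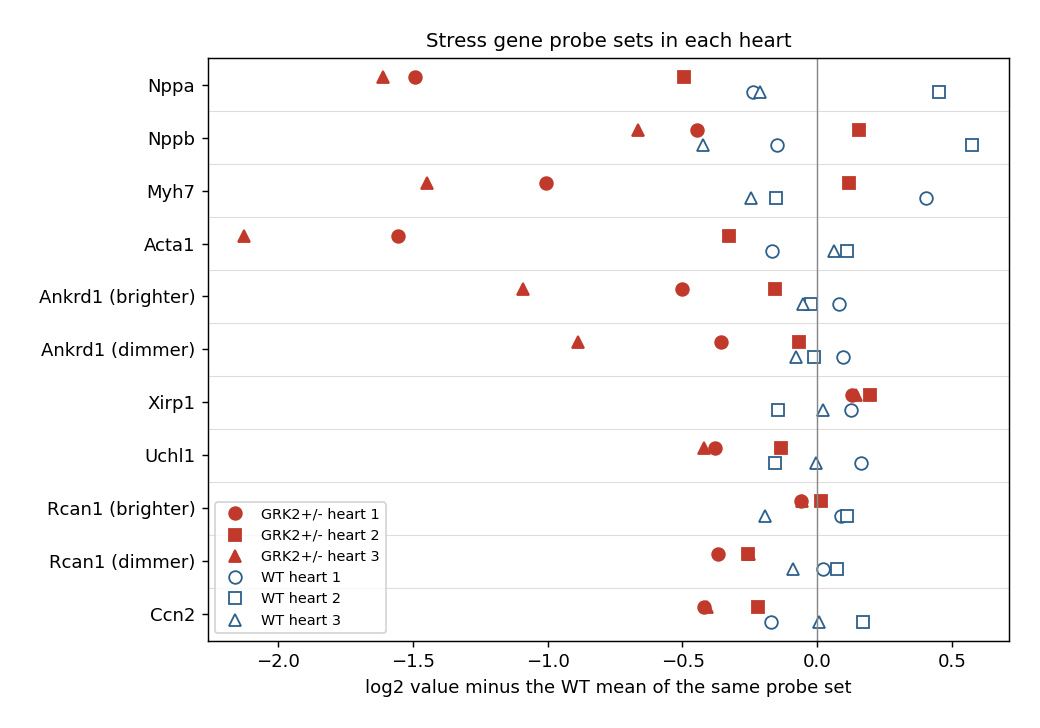
Each of the 11 probe sets (vertical axis) in each heart, as the log2 value minus the wild-type mean of that probe set (horizontal axis); filled red symbols are GRK2+/- hearts, open blue symbols wild-type hearts, and the shape gives the heart number. The points of GRK2+/- hearts 1 and 3 lie farthest left for Acta1 (-1.55 and -2.12) and Nppa (-1.49 and -1.61), with the square of GRK2+/- heart 2 between them and the wild-type hearts.

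Of the 11 probe sets, 10 had a difference below 0 and 1 above, with a median of -0.35. Over all 45037 probe sets, 25843 were below 0 and 19194 above, with a median of -0.021. The 3 GRK2+/- hearts lay below all 3 wild-type hearts in 5 member probe sets (11.2% of all probe sets) and above them in 1 (6.76% of all), or 6 in either direction (17.9% of all). At an unadjusted p under 0.05 with limma, 8 were lower (7.4% of all) and 0 higher (5.44% of all), against 12.8% of all in either direction. None passed an adjusted p of 0.05, nor did any probe set on the array (0% of all). Without GRK2+/- heart 2, Acta1 (adjusted p = 0.0109) and Nppa (adjusted p = 0.0456) fell under that threshold with limma, and they did so under no other alternative run. That heart was the nearest of its group to wild type in both genes, so leaving it out had to enlarge both differences. Nothing is read from these counts or p-values, because the same contrast was used to choose the genes. Differences of this kind in bulk tissue do not tell fewer cells of a type from less RNA per cell.

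Nppa, the peptide hormone of the atrium that the ventricle makes in the fetus and under load, had values of 9.68, 10.67 and 9.56 in GRK2+/- hearts 1, 2 and 3 and of 10.93, 11.62 and 10.95 in wild-type hearts 1, 2 and 3. All 3 GRK2+/- hearts lay below the lowest wild-type heart, by 0.26 at the nearest. With each heart left out in turn the difference was lowest without GRK2+/- heart 2 (-1.55) and nearest to 0 when wild-type heart 2 was dropped (-0.97).

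Nppb, which encodes the natriuretic peptide measured in blood to diagnose heart failure, had values of 11.42, 12.02 and 11.20 in GRK2+/- hearts and of 11.72, 12.44 and 11.45 in wild-type hearts. The groups overlapped, with heart 2 the highest in both. The difference was -0.32 ± 0.25, smaller than the SD within each group (0.42 and 0.52), and it ran from -0.56 without GRK2+/- heart 2 to -0.032 without wild-type heart 2.

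Both neighbouring genes were highest in the same hearts, so the gap between them was also read within each heart. Set relative to its wild-type mean, Nppa stood below Nppb by a gap of -1.04, -0.65 and -0.94 in GRK2+/- hearts, whereas the wild-type hearts had gaps of -0.087, -0.12 and 0.21. The groups did not overlap in this gap, and its SD, 0.20 in GRK2+/- and 0.18 in wild-type hearts, was smaller than that of either gene alone. Both genes were chosen on these values, so nothing is read from the gap or its lack of overlap. It also says nothing of whether Nppb itself was unchanged.

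Myh7 encodes the slow beta-myosin heavy chain, the fetal ventricular isoform of the mouse, and Myh6 the fast alpha chain that replaces it after birth. Myh7 had values of 9.43, 10.56 and 8.99 in GRK2+/- hearts and of 10.84, 10.29 and 10.19 in wild-type hearts. GRK2+/- hearts 1 and 3 lay below every wild-type heart, and GRK2+/- heart 2 within the wild-type range. The difference of -0.78 ± 0.33 was -1.23 without GRK2+/- heart 2 and -0.44 without GRK2+/- heart 3. Myh6 differed by 0.05 ± 0.06 in its brighter probe set and did not pass the threshold (limma, adjusted p = 0.777), with levels of 14.88 and 14.83 in GRK2+/- and wild-type hearts. Its other probe set gave 0.33, and the average of both 0.19. The highest value on any array was 15.1, and whether probes so near the top of the scale were saturated was not tested. A pair of further probe sets is annotated to both myosins; they had differences of 0.10 ± 0.07 and 0.17 ± 0.13 and were left out of the members. Relative to the brighter Myh6 probe set in the same heart, Myh7 stood at -1.09, 0.08 and -1.46 in GRK2+/- hearts and at 0.39, -0.19 and -0.21 in wild-type hearts.

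Acta1 had values of 10.43, 11.65 and 9.85 in GRK2+/- hearts and of 11.81, 12.09 and 12.04 in wild-type hearts. Wild-type hearts lay within 0.28 of each other, whereas the GRK2+/- hearts spanned 1.80. GRK2+/- heart 2 came within 0.16 of the lowest wild-type heart, and without that heart the difference was -1.84 (-0.94 without GRK2+/- heart 3). Actc1, the cardiac alpha-actin of adult heart muscle, differed by -0.03 ± 0.06 (limma, adjusted p = 0.886) with a wild-type level of 15.02, near the top of the scale. The gap between Acta1 and Actc1 within a heart was -1.54, -0.31 and -2.08 in GRK2+/- hearts and -0.15, 0.09 and 0.06 in wild-type hearts.

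Ankrd1 encodes a cardiac ankyrin repeat protein that binds titin in the I-band and moves to the nucleus of stretched muscle cells. Its brighter probe set had values of 13.09, 13.43 and 12.50 in GRK2+/- hearts and of 13.66, 13.56 and 13.53 in wild-type hearts, a difference of -0.58 ± 0.19. Its other probe set gave -0.44 ± 0.17, and there GRK2+/- heart 2 (13.39) lay just above the lowest wild-type heart (13.38). Without GRK2+/- heart 3 these differences were -0.33 and -0.21. As with Acta1, the wild-type hearts stood close together (SD 0.069 in the brighter probe set) and the GRK2+/- hearts apart (SD 0.47). Its relatives Ankrd2 and Ankrd23, which bind titin as well, differed by -0.09 ± 0.07 and -0.20 ± 0.15, and Ankrd1 stood below each of them in all 3 GRK2+/- hearts relative to wild type.

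**Figure D2:**
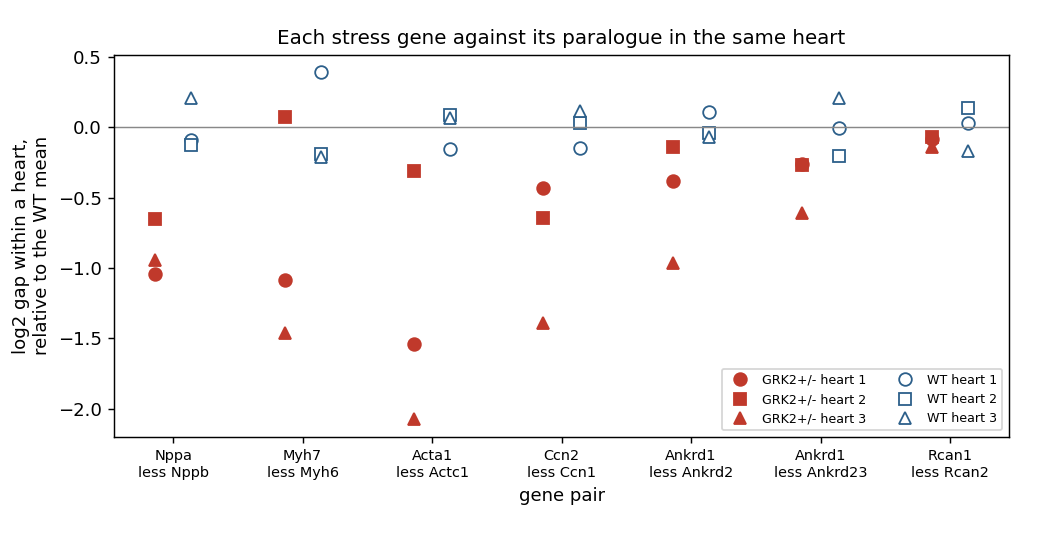
The log2 gap between a stress gene and a related gene within each heart (vertical axis), set to a wild-type mean of 0, for 7 gene pairs (horizontal axis); red filled symbols are GRK2+/- hearts and blue open symbols wild-type hearts. The gap between Nppa and Nppb is -0.65 or lower in every GRK2+/- heart, whereas for Myh7 and Myh6 the groups overlap through GRK2+/- heart 2 (0.08).

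Xirp1 encodes a Xin repeat protein that binds actin at the intercalated discs joining heart muscle cells. It had values of 9.94, 10.01 and 9.96 in GRK2+/- hearts and of 9.94, 9.67 and 9.84 in wild-type hearts. It was the 1 member that stood higher in GRK2+/- hearts, by 0.15 ± 0.08, and the closest hearts of the groups were 0.0024 apart. The difference was 0.082 without wild-type heart 2.

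Uchl1, a deubiquitinating enzyme abundant in neurons and induced in stressed heart muscle, had values of 7.51, 7.76 and 7.48 in GRK2+/- hearts and of 8.06, 7.74 and 7.89 in wild-type hearts. GRK2+/- heart 2 lay above wild-type heart 2, so the groups overlapped by 0.023, and the difference was -0.31 ± 0.10. Neuron markers lay mostly near the bottom of the scale: 14 of 15 were measured, 12 of them below the median gene (7.24), and their summed linear level relative to wild type was 0.912 to 0.993 in GRK2+/- and 0.971 to 1.04 in wild-type hearts. Of the measured neuron markers, 4 had a difference above 0 and 10 below (10270 of all 18193 genes). Dbh was the brightest (-0.04 ± 0.09), and Npy differed most (-0.27 ± 0.11), at levels of 6.50 and 6.77 in GRK2+/- and wild-type hearts. Schwann cell markers (4 of 6 measured) had a summed level of 1.01 to 1.07 in GRK2+/- and 0.939 to 1.05 in wild-type hearts. Their part in the Uchl1 value was not tested.

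Rcan1 encodes an inhibitor of the phosphatase calcineurin, whose signal to NFAT factors drives growth of heart muscle and in turn induces Rcan1 from an inner start. Its dimmer probe set had values of 7.88, 7.99 and 7.99 in GRK2+/- hearts and of 8.27, 8.32 and 8.16 in wild-type hearts, a difference of -0.29 ± 0.07 without overlap. Its brighter probe set had values of 9.50, 9.57 and 9.50 against 9.65, 9.67 and 9.37 and overlapped, with a difference of -0.03 ± 0.09 that was 0.0091 without wild-type heart 1 and 0.019 without wild-type heart 2. The annotation used does not say which Rcan1 transcripts either probe set reads.

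Ccn2 encodes a matricellular protein secreted by heart muscle and fibroblasts in fibrosis. It had values of 9.31, 9.51 and 9.32 in GRK2+/- hearts and of 9.56, 9.90 and 9.73 in wild-type hearts. The groups did not overlap, by 0.048, and the difference was -0.35 ± 0.10 (-0.27 without wild-type heart 2). Its close relative Ccn1, an early response gene of the same family, had values of 9.38, 9.79 and 10.35 in GRK2+/- hearts and of 9.34, 9.50 and 9.26 in wild-type hearts. The Ccn1 difference of 0.47 ± 0.20 did not pass the threshold (limma, adjusted p = 0.329), and all 4 of its probe sets pointed the same way. It was 0.22 with GRK2+/- heart 3 left out and 0.70 with GRK2+/- heart 1 left out. Within a heart, Ccn2 stood below Ccn1 in all 3 GRK2+/- hearts, by a gap of -0.43, -0.65 and -1.39, against -0.15, 0.03 and 0.12 in wild-type hearts. Fibroblast markers (8 of 8 measured) had a summed level of 0.956 to 0.981 in GRK2+/- and 0.928 to 1.05 in wild-type hearts. Of these markers, 4 had a difference above 0 and 4 below. Dcn was the brightest (-0.04 ± 0.08), and Mfap5 differed most (-0.527 ± 0.115). The part of fibroblast markers in the Ccn2 value was not tested.

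Among the GRK2+/- hearts, 7 of the 11 probe sets were highest in heart 2, then heart 1, then heart 3, an order found in 13.8% of all probe sets. They belong to Nppa, Nppb, Myh7, Acta1, Ankrd1 and Uchl1. GRK2+/- heart 2 was the highest of its group in 10 of the 11, against 32.4% of all probe sets. The highest of all 6 hearts was a wild-type heart in 10 of the 11 (56.6% of all). Spread within a group was large for these genes: the SD of Acta1, Myh7, Nppa and Nppb pooled over groups (0.66, 0.62, 0.51 and 0.47) exceeded that of at least 99.8% of all probe sets, while Rcan1 (0.12 and 0.075), Xirp1 (0.10) and Ccn2 (0.14) lay nearer the median of 0.10. The SD was larger in GRK2+/- than in wild-type hearts for 5 of the 11 probe sets, those of Nppa, Myh7, Acta1 and Ankrd1, and for 48.7% of all. The numbers of the hearts mark no order, and the spread was among the values that chose the genes.

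By root mean square difference over the 6 hearts, with every gene centred on its own mean, the gene nearest to Acta1 was Nppa (0.28), followed by Myh7 (0.40) and Ptgds (0.41), a synthase of prostaglandin D. Nearest to Nppa were Acta1 (0.28), the carboxypeptidase-like gene Cpxm2 (0.36) and Ptgds (0.36). Nearest to Myh7 was Mybpc2 (0.15), the fast skeletal form of myosin-binding protein C, followed by Ptgds (0.28) and the scaffold gene Cnksr1 (0.29). Mybpc2 had values of 7.03, 7.94 and 6.37 in GRK2+/- hearts and of 7.92, 7.58 and 7.62 in wild-type hearts, so that GRK2+/- hearts 1 and 3 lay below every wild-type heart and GRK2+/- heart 2 just above them. Ptgds had values of 12.78, 13.54 and 12.52 against 13.57, 13.59 and 13.68.

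**Figure D3:**
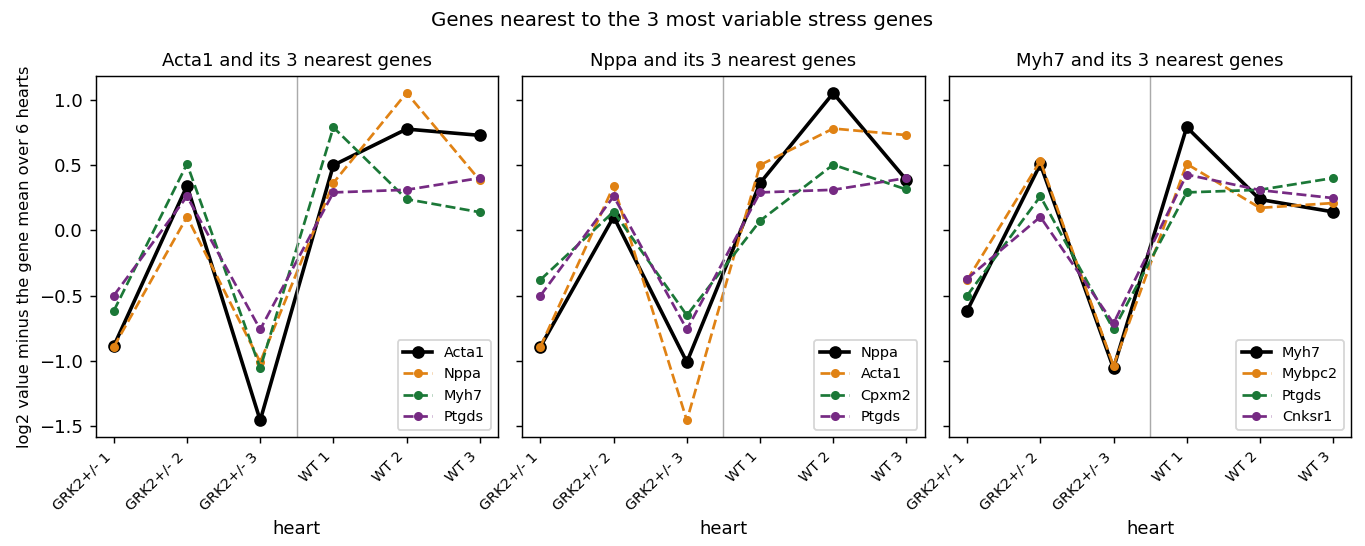
Log2 values minus the mean of the gene over 6 hearts (vertical axis) in each heart (horizontal axis) for Acta1, Nppa and Myh7 (black) and the 3 genes nearest to each (dashed colours); lines only join the values of a gene. All the curves drop in GRK2+/- hearts 1 and 3, and Mybpc2 follows Myh7 most closely, with a root mean square difference of 0.15.

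Genes that work with the natriuretic peptides pointed both ways, with 4 above 0 and 6 below: 10 of 11 were measured, and with limma 0 passed an adjusted p of 0.05 (0% of all genes), with 1 higher and 1 lower at an unadjusted p under 0.05 (6.3% and 7.7% of all genes). Their median difference was -0.037, against -0.019 over all genes, and it turned positive without levels below the 25th percentile (0.021), without GRK2+/- heart 2 (0.0081), and when the probe sets of a gene were averaged (0.0079) or the most variable one was used (0.032). Mme, the neprilysin that degrades the peptides, differed by 0.41 ± 0.12 (adjusted p = 0.213), though 1 of its 2 probe sets pointed the other way. Nppc, the C-type peptide, differed by -0.19 ± 0.07 (adjusted p = 0.274) at levels of 5.18 and 5.37, below the median gene. Furin, a protease that cuts the Nppb precursor, differed by 0.20 ± 0.09 (adjusted p = 0.37; 0.11 with wild-type heart 2 left out), and Corin, which cuts that of Nppa, by -0.07 ± 0.09 (adjusted p = 0.753). The peptide receptor Npr1 differed by -0.04 ± 0.07 at a level below the median gene, and the clearance receptor Npr3 by -0.09 ± 0.09.

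Adult and fetal isoforms of other contractile and calcium pump proteins pointed both ways, with 9 above 0 and 11 below. All 20 listed genes were measured. With limma 0 passed and 0 had an unadjusted p under 0.05 (14% of all genes). The median difference was -0.0042. It turned positive once arrays were centred on their medians (0.025), after quantile normalisation (0.0029), and with GRK2+/- heart 1 (0.00098) or 2 (0.0020) left out. The nearest to the threshold were the atrial light chain Myl4 (0.14 ± 0.07, adjusted p = 0.416), whose other probe set pointed the other way, tropomyosin Tpm2 (0.18 ± 0.10, adjusted p = 0.443, and 0.11 to 0.28 with a heart left out) and the atrial light chain Myl7 (0.11 ± 0.07, adjusted p = 0.463). Slow skeletal troponin Tnni1, the fetal form of troponin I, differed by -0.11 ± 0.07 at levels below the median gene, and the calcium pump Atp2a2 by 0.01 ± 0.06. The largest difference of the list was that of the smooth muscle actin Acta2, at 0.31 ± 0.18 (adjusted p = 0.473). Myh6, Actc1 and Atp2a2 lay near the top of the scale, where a difference is limited.

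Of the transcriptional and calcineurin regulators of the fetal programme all 26 were measured. A difference above 0 was seen for 20 of them (7923 of all 18193 genes), with a median of 0.094. That median ranged between 0.054 (GRK2+/- heart 2 left out) and 0.13 (wild-type heart 1 left out), and became 0.022 when all probe sets of a gene were averaged. With limma 0 passed, while 7 were higher at an unadjusted p under 0.05 (6.3% of all genes) and 0 lower (7.7% of all genes). Hdac9, a class II deacetylase that represses MEF2 factors, differed by 0.57 ± 0.11 (adjusted p = 0.116), although its other probe set gave 0.0013. Mef2d differed by 0.31 ± 0.07 (adjusted p = 0.141; 2 of 3 probe sets in that direction) and Mef2c by 0.24 ± 0.07 (adjusted p = 0.231; 5 of 5, the most variable at 0.38). The rest of the 7 were Srf (0.21 ± 0.07; 1 of 2 probe sets), Gata4 (0.26 ± 0.08; 2 of 2), the serum response factor partner Myocd (0.35 ± 0.13; 1 of 2) and Mef2a (0.16 ± 0.07; 5 of 6). Srf and Gata4 belong to the factors whose motifs were marked in the promoters. The other GATA gene of the list and its TEAD and NFAT genes were not among the 7. Binding to the marked sites was not tested.

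Genes of titin, the Z-disc and stretch sensing had a median difference of -0.055, with 17 of 20 below 0 (10270 of all 18193 genes). With limma 0 passed, and at an unadjusted p under 0.05 there was 1 lower (7.7% of all genes) and 0 higher (6.3% of all genes). That gene was Myot, the Z-disc protein myotilin, at -0.49 ± 0.13 (adjusted p = 0.181), with values of 10.98, 11.21 and 10.66 in GRK2+/- hearts and of 11.48, 11.53 and 11.32 in wild-type hearts. Myoz2, a Z-disc protein that binds calcineurin, differed by -0.15 ± 0.07 (adjusted p = 0.366) and the small heat shock protein Hspb7 by -0.14 ± 0.07 (adjusted p = 0.368) in its brightest probe set. All 3 Hspb7 probe sets pointed the same way, with an average of -0.39 and the most variable at -0.66.

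Matricellular genes of the stressed heart pointed both ways: 19 of 21 were measured and 0 passed with limma. At an unadjusted p under 0.05, 3 were higher (6.3% of all genes) and 3 lower (7.7% of all genes). Thbs4, a thrombospondin induced in overloaded hearts, differed by -0.38 ± 0.08 (adjusted p = 0.13), Timp1, an inhibitor of matrix proteases, by -0.31 ± 0.10 (adjusted p = 0.248) at levels of 6.72 and 7.02, and the collagen gene Col1a1 by 0.30 ± 0.11 (adjusted p = 0.276). Timp1 was at -0.19 with GRK2+/- heart 3 left out, and Col1a1 at 0.19 with wild-type heart 3 left out. Their median was -0.054, and 0.0057 when the most variable of a gene's probe sets was used. It ranged from -0.095 (GRK2+/- heart 2 left out) to -0.014 (GRK2+/- heart 3 left out).

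Of 16 other genes known to be induced in stressed hearts 14 were measured. A difference below 0 was found for 11 of them (10270 of all 18193 genes), with a median of -0.11 (-0.042 among genes at or above the median level). With limma 0 passed, and at an unadjusted p under 0.05 there were 4 lower (7.7% of all genes) and 1 higher (6.3% of all genes). The small heat shock protein Hspb1 differed by -0.19 ± 0.06 (adjusted p = 0.259), the pseudokinase Trib3 by -0.21 ± 0.07 (adjusted p = 0.265) and the cytokine Il33 by -0.33 ± 0.13 (adjusted p = 0.307).

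**Figure D4:**
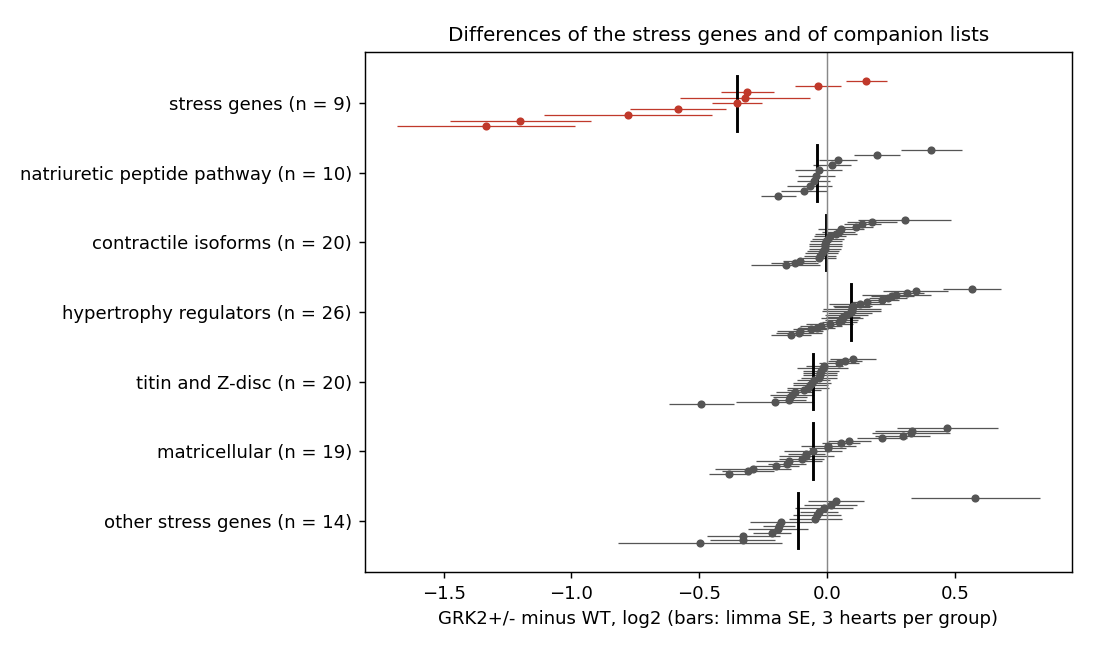
GRK2+/- minus wild-type differences on the log2 scale with limma SE (horizontal axis, 3 hearts per group) for the 9 stress genes (red) and for the 6 companion lists (grey); each point is a gene and each black bar the median of its list. The stress genes reach -1.33 (Acta1), whereas the 109 companion genes lie between -0.50 and 0.58.

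The excised part of the heart could hold atrium, where Nppa is highest, so atrial markers were read beside it. All 15 were measured and 9 lay below the median gene, among them the defining atrial genes Myl7 (5.61 in GRK2+/- and 5.50 in wild-type hearts) and Myl4 (7.24 and 7.10). Their mean relative to wild type was 0.023, 0.00038 and 0.081 in GRK2+/- hearts 1, 2 and 3, and wild-type hearts ranged from -0.031 to 0.036. Their summed linear level, 0.872 to 0.946 in GRK2+/- and 0.968 to 1.06 in wild-type hearts, was set mostly by Clu, the brightest gene of the list (-0.19 ± 0.08). The largest difference in the list was that of Kcnj3 (0.32 ± 0.09). Ventricular markers, led by Myl2, had a summed level of 0.987 to 0.998 and 0.997 to 1.00, and heart muscle markers, Actc1 among them, one of 1.00 to 1.03 and 0.986 to 1.01. Skeletal muscle, which also expresses Acta1 and Mybpc2, was read from 12 markers, of which 11 lay below the median gene; their summed level was 0.978 to 1.01 and 0.963 to 1.04.

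Other cell types gave summed levels, in GRK2+/- and then wild-type hearts, of 0.972 to 1.07 and 0.946 to 1.05 for the conduction system (5 of 7 markers measured) and of 1.13 to 1.14 and 0.939 to 1.07 for smooth muscle (7 of 7). They were 1.04 to 1.10 and 0.973 to 1.05 for endothelium (8 of 8), and 1.03 to 1.13 and 0.959 to 1.03 for leukocytes (7 of 9). Red cell markers (3 of 6) ranged from 1.13 to 1.33 and from 0.757 to 1.46. The 24 immediate early genes had a mean relative to wild type of 0.11, 0.50 and 1.05 in GRK2+/- hearts 1, 2 and 3, while the mean of the 9 stress genes in those hearts was -0.64, -0.095 and -0.85. GRK2+/- heart 2 was nearest to wild type for the stress genes and heart 1 for the early genes. GRK2+/- heart 3 was the farthest from wild type in both lists. Beta-actin controls, whose 3′ over 5′ signal grows as RNA is degraded or labelled less fully, read 0.90, 1.06 and 0.97 (log2) in GRK2+/- and 0.80, 0.80 and 0.73 in wild-type hearts. The same measure overlapped between groups for Gapdh (means 0.030 and 0.0051) and for pyruvate carboxylase (1.77 and 1.75). The Y-linked gene Eif2s3y lay between 8.67 and 9.11 in all 6 hearts. The part of these in the stress gene values was not tested.

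**Figure D5:**
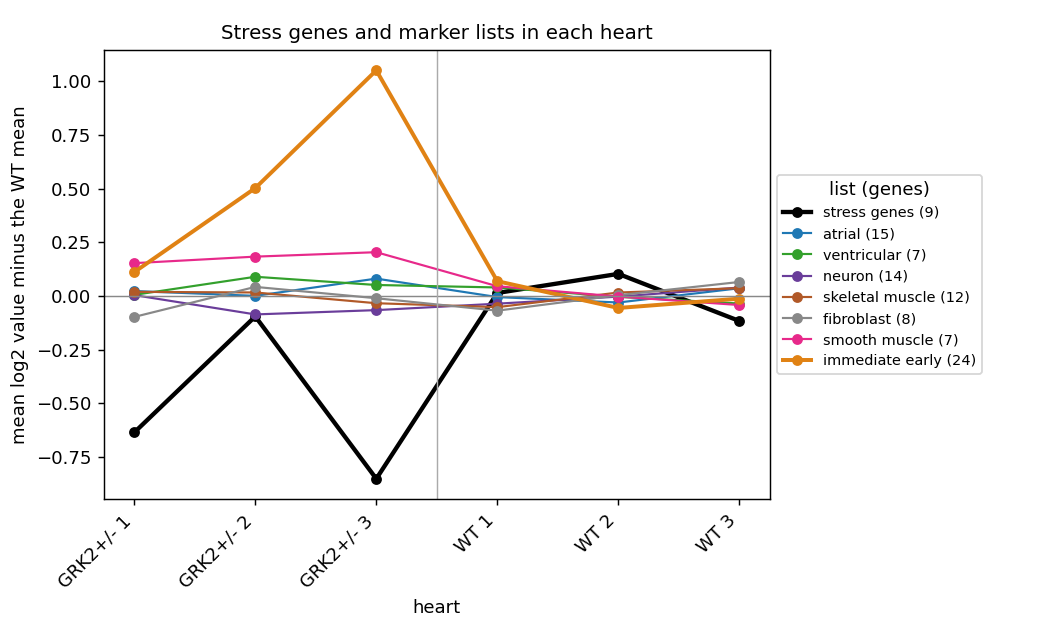
Mean log2 value of each gene list minus its wild-type mean (vertical axis) in each heart (horizontal axis); black marks the 9 stress genes, orange the 24 immediate early genes, thin lines marker lists, and lines only join the values of a list. The stress genes are at -0.64 and -0.85 in GRK2+/- hearts 1 and 3 and at -0.095 in heart 2, while the atrial, ventricular, neuron, skeletal muscle and fibroblast lists stay within 0.10 of wild type and the smooth muscle list is at 0.15, 0.18 and 0.20 in the GRK2+/- hearts.

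Array medians ranged from 6.25 to 6.31. No probe set of the annotation used was named for Grk2, so that gene gave no check of the genotypes. The labels do not say how the animals were related beyond being littermates, and 3 hearts per group limit the precision: an exact permutation test could not give a two-sided p below 0.1.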

How the data were processed

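The table deposited by the authors holds log2 values per probe set for 6 hearts. RMA and limma are named, without versions or roles, in the submitters' processing notes; joint normalisation of all arrays is not given in the sources used here. The 64 control probe sets were left out. Symbols came from the platform annotation and were matched to a RefSeq gene table for 34741 probe sets, taking its current symbol; 34945 probe sets had 1 symbol, 932 several and 9160 were not listed.

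limma (version 3.58.1, R 4.3.3; lmFit and eBayes, two-sided, Benjamini-Hochberg, threshold 0.05) was fitted to all 45037 probe sets, used for the members, and to 18193 genes with the brightest probe set of each, used for the lists. The steps were tested on simulated data. Text names every member, the 3 genes of each companion list with the smallest p, the 3 nearest genes by root mean square difference for the 3 members most variable over the hearts (among genes at or above the median level), related genes of members, and the brightest or most different markers; Srf, Gata4, Myocd, Mef2a, Corin, Npr1, Npr3, Tnni1, Acta2 and Atp2a2 were named after their values were seen. The members and lists were chosen with earlier results of these data known. Alternatives covered normalisation, low values, the prior, array weights, the probe set of a gene, a replicate block and leaving out each heart. Promoters are from RefSeq (GRCm38.p6).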

Additional observations from a re-analysis of the deposited data

How the results depend on the processing

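The median difference of the 11 stress gene probe sets, -0.35, was -0.32 after centring each array and -0.37 after quantile normalisation, and ran from -0.56 (without GRK2+/- heart 2) to -0.31 (without GRK2+/- heart 3). Of 154 values of these probe sets under alternatives, 2 changed sign, both of the brighter Rcan1 probe set (0.0091 and 0.019). That 0 moved by more than the pooled SD within groups says nothing of stability. Leaving out 1 of 3 hearts cannot move a difference so far, and a level filter or another prior does not change it. Genes past the threshold, 0 with the design as planned, numbered 6 at levels at or above the median, 42 with a prior that follows the mean level, 12 with array weights, 12 with the most variable probe set and 0 to 56 with a heart left out; probe sets numbered 22 with that prior and 0 to 41 with a heart left out. The highest counts came from leaving out GRK2+/- heart 1. Leaving out GRK2+/- heart 2 gave 3 genes and 9 probe sets, those of Acta1 and Nppa among them, and leaving out GRK2+/- heart 3 gave 4 and 6. Nothing is read from the passing of Acta1 and Nppa, which were chosen on this contrast. Companion genes past the threshold were 0 under all alternatives run. Unadjusted counts, 2546 genes and 5780 probe sets, were 1553 and 3547 at levels at or above the median, and 1614 and 3772 without wild-type heart 3. The level filter left fewer genes and probe sets to test, so its lower counts do not mean a lower share. Myl4 reversed to -0.014 with the mean of its probe sets and to -0.17 with the most variable one. With a replicate block on heart number, 1 gene and 0 probe sets passed; same-numbered hearts deviated with correlations of -0.145, -0.0197 and 0.00949 over probe sets, so the numbers were not taken as pairs. The causes of these shifts were not tested. Arrays give no count depth, and signal near the bottom or top of the scale limits differences.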
